A study of Homo sapiens with 2 samples.

Results

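Ubiquitin-specific proteases (USPs) are the largest family of human deubiquitinases, the enzymes that remove ubiquitin from proteins. The genes described here are all symbols made of USP and a number, with or without a final X, counted from transcript 3' ends in A549, a lung adenocarcinoma cell line. The rule found 50 such genes among the 24462 symbols counted, and none stood on more than 1 row. A ubiquitin tag can send a protein to the proteasome, route a receptor to the lysosome or alter the activity of a chromatin or signalling factor. USPs cut the bond between ubiquitin and its target with a cysteine at the active site, and many need a partner protein for full activity. In lung cancer cells they are studied mainly for the stability of p53, MYC, growth factor receptors and DNA repair proteins.

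The comparison asks which transcripts differ once ADGRF4, a receptor of the adhesion GPCR class, is targeted by siRNA. There were 2 bulk RNA libraries, 1 from A549 cells transfected with control siRNAs and 1 from A549 cells transfected with ADGRF4 siRNAs. Both came from 1 cell line grown in DMEM with fetal bovine serum, and the labels give neither siRNA sequences nor the time after transfection. Neither group has replicates, so nothing was tested and every difference below is between these 2 libraries.

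Depth was 10396047 counts in the control library and 9825320 in the other. USP genes took 28412 (0.273%) and 25821 (0.263%) of them. ADGRF4 itself had 3 counts in the control (exact Poisson 95% interval 0.619 to 8.77) and 1 in the knockdown library (0.0253 to 5.57), so its loss was not detectable at this depth and the silenced gene does not check the labels. All 6 epithelial markers were read, from 75 and 38 counts for EPCAM to 58990 and 79367 for KRT18, whereas the T cell gene CD3E and the endothelial genes VWF and KDR had 0 counts in both. The endothelial genes PECAM1 and CDH5 had 0 counts in the control and 1 and 2 in the knockdown library. The fibroblast genes COL1A2 and DCN had 0 counts in the control and 6 and 5 in the knockdown library, and COL1A1 had 50 and 45. Among the leukocyte genes, PTPRC had 7 and 2 counts, LYZ 6 and 10, and CD14 45 and 30, with a fold interval of 0.476 to 1.27 for CD14. The epithelial genes did not move together: KRT7 was 2.66-fold higher and CDH1 4.34-fold lower. Their part in the USP ratios was not tested.

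Of the 50 USP genes, 48 had a count in each library, and the 10 most abundant held 65.2% of all USP counts. USP26 and USP29 had 0 counts in both, which allows up to 3 counts, or 0.289 and 0.305 CPM, the count relative to the library total on the usual scale (1e+06 counts). Reads start near the poly(A) tail, so counts depend little on transcript length and were not divided by it. Copies made by PCR were counted as separate reads. USP22 (3083 and 2243 counts, control first here and below), USP9X (2901 and 2654), USP7 (2100 and 2004), USP48 (1899 and 2397) and USP8 (2327 and 1281) were the most counted.

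**Figure D1:**
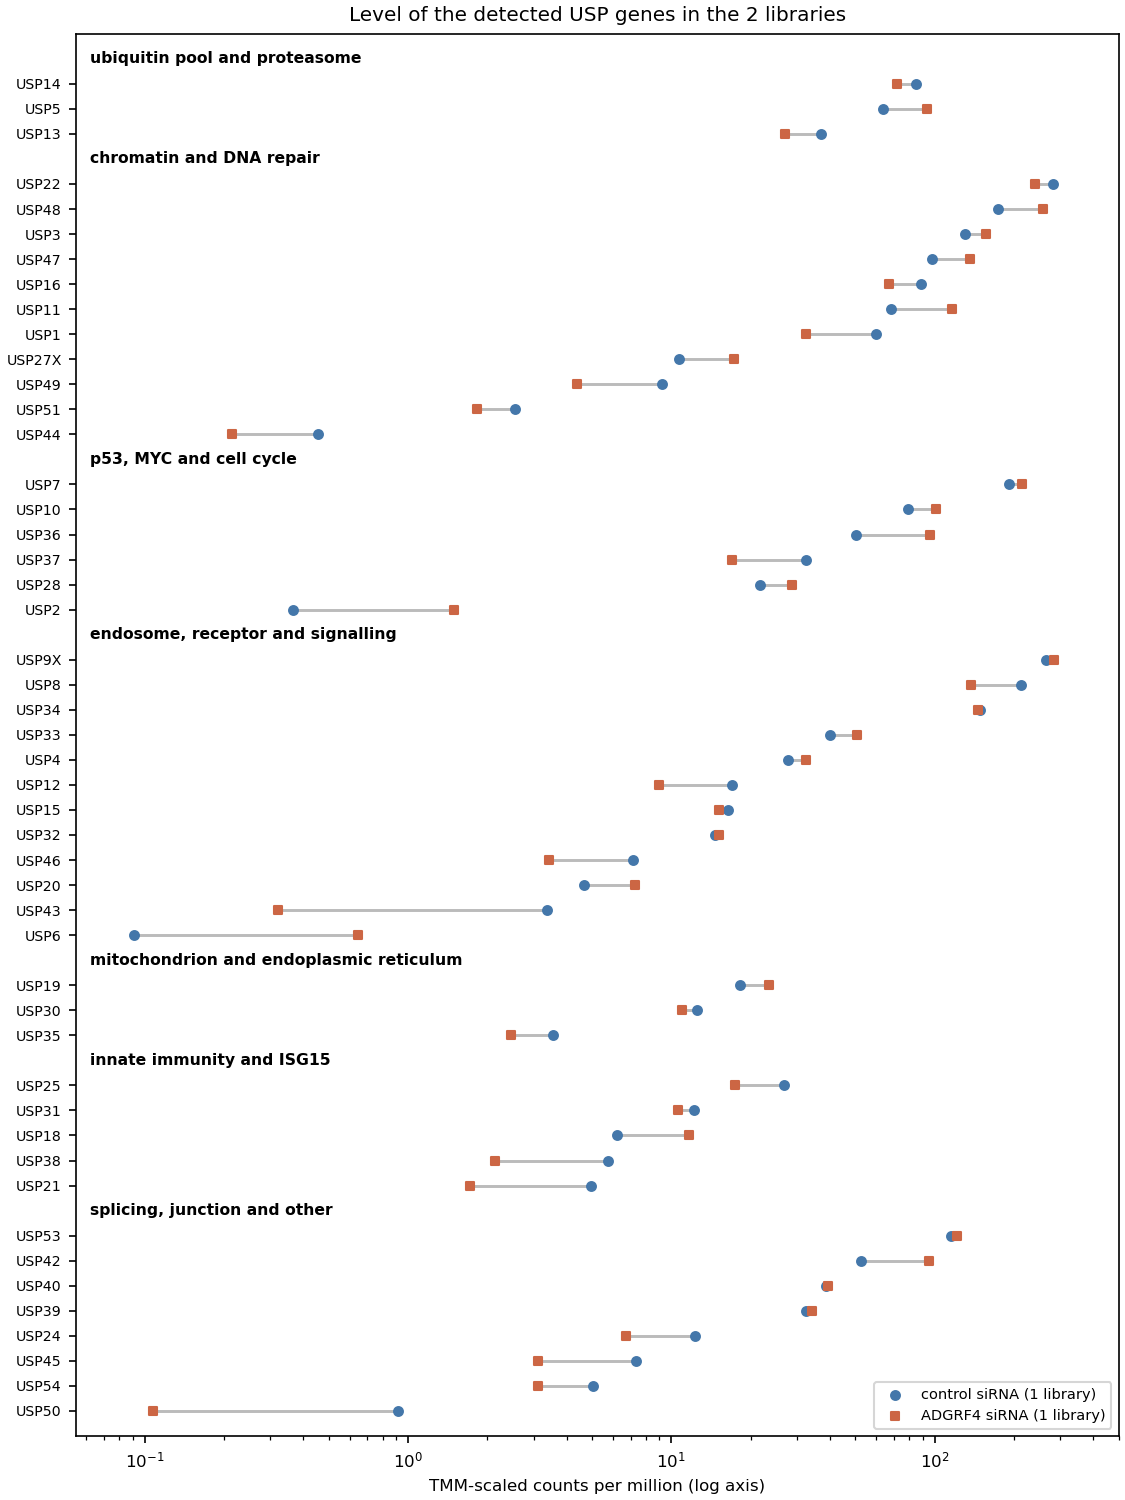
Level of the 48 detected USP genes, in TMM-scaled CPM on a log axis, grouped by the role given to each gene. Circles are the control siRNA library and squares the ADGRF4 siRNA library, 1 library each, with no error bar because there are no replicates. Levels run from below 1 CPM for USP6, USP44 and USP50 to 265 and 284 CPM for USP9X, and USP43 has the longest line towards a lower level.

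A total of 42 USP genes averaged 30 counts or more over the libraries and were compared, and 8 fell under that limit. Library sizes were TMM-scaled (trimmed mean of M values). A gene is called higher or lower when the ratio of (CPM + 1), ADGRF4 siRNA over control, reaches 1.5-fold. Folds of single genes carry no pseudocount and are followed by their exact 95% intervals, for counting error alone. Because the samples are bulk RNA, fewer cells that express a gene and less of its RNA per cell cannot be told apart.

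Among the 42 compared, 10 USP genes were called lower after ADGRF4 siRNA, 5 were called higher and 27 lay between the limits. Over all 11771 compared symbols, 22.3% were called lower and 21.1% higher. In the USP family these shares were 23.8% and 11.9%, so on this scale the share lower is near the background and the share higher is below it. The second of these turned when ratios were centred on the GC content of transcript ends, as described below: 16.7% of the USP genes were then higher, against 15.1% of all symbols, and 21.4% lower, against 19.2%. The lower genes were USP1, USP8, USP12, USP21, USP24, USP37, USP38, USP45, USP46 and USP49, and the higher ones USP11, USP18, USP27X, USP36 and USP42. On the (CPM + 1) scale no compared member was 2-fold higher and 3 were 2-fold lower (USP21, USP38 and USP45), where the background is 7.84% and 10.4%. As plain folds, USP46 and USP49 also passed 2-fold lower. The family's median log2 ratio was -0.0014, against -0.016 for all compared symbols, with 21 members above 0 and 21 below. The SD of the log2 ratios was 0.59 in the family and 0.77 over all compared symbols.

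**Figure D2:**
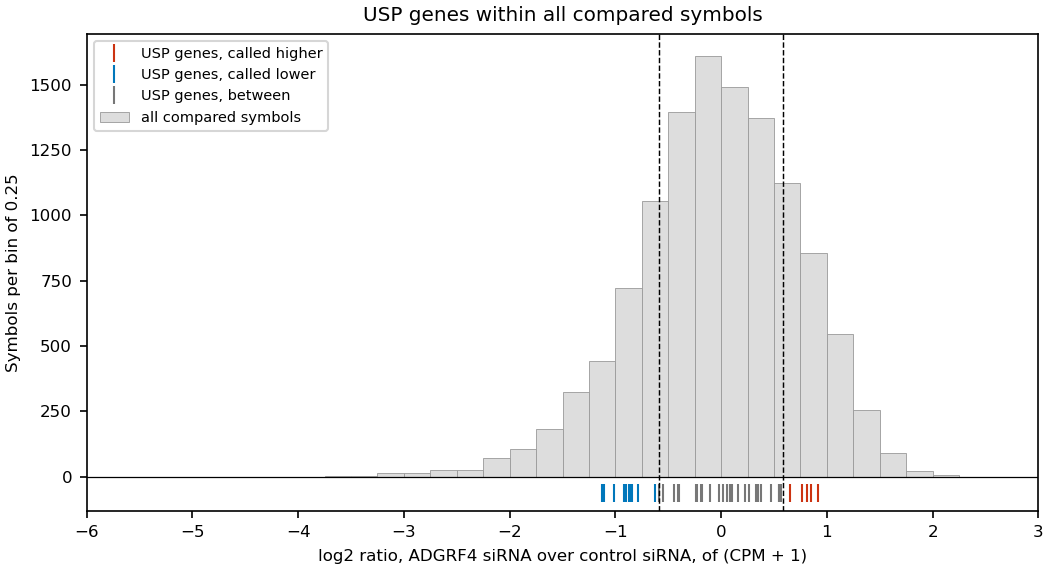
Histogram of the log2 ratio of (CPM + 1), ADGRF4 siRNA over control siRNA, for all 11771 compared symbols in bins of 0.25, with the 42 compared USP genes as ticks under it. Dashed lines mark 1.5-fold. USP genes lie inside the body of the distribution, with 10 ticks left of the lower line and 5 right of the upper line.

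The counting interval of the fold excluded 1 for 33 of the 42 compared USP genes, 17 of them higher and 16 lower. It did so on each side for 36.1% of all compared symbols. Such intervals were therefore common over all symbols and are no trait of the USP genes. Some of them came close to 1, such as that of USP4 (1.0004 to 1.38). PCR copies were counted as separate reads, so the intervals can be too narrow, and the spread between cultures was not measured. Of the 27 genes between the limits, 18 had an interval that excluded 1. USP20 (51 and 68 counts, 1.56-fold higher), USP25 (292 and 163, 1.53-fold lower) and USP54 (55 and 29, 1.62-fold lower) passed 1.5-fold as plain folds but not on the scale with the pseudocount.

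**Figure D3:**
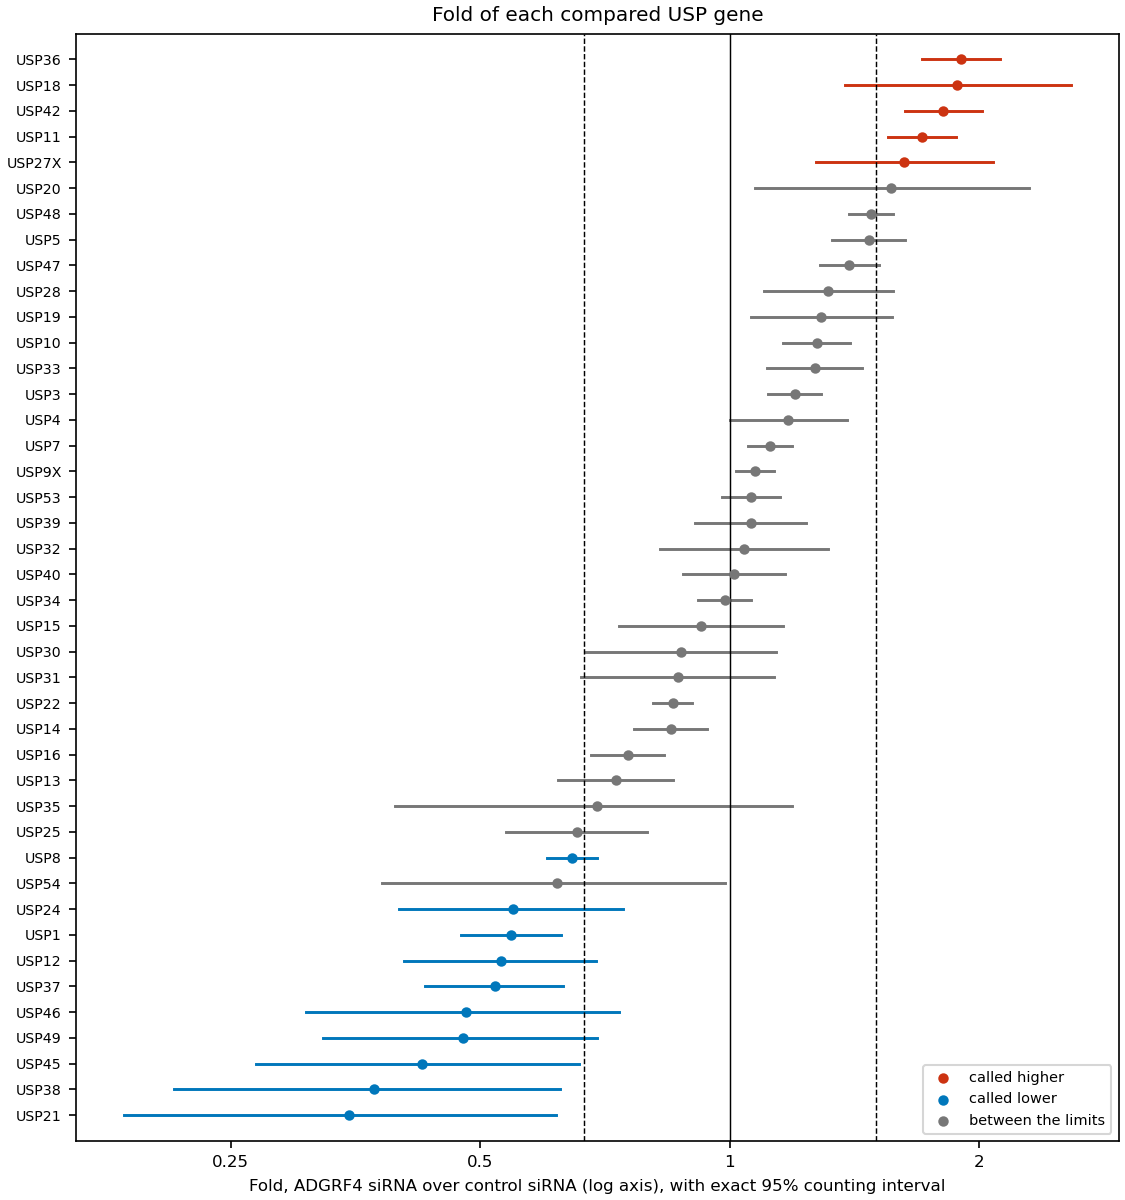
Fold of each of the 42 compared USP genes, ADGRF4 siRNA over control siRNA, on a log axis and ordered by size, without a pseudocount. Bars are exact 95% counting intervals from 1 library per group, dashed lines mark 1.5-fold, and colours give the call. USP21 stands lowest at 0.348 and USP36 highest at 1.90.

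USP1, USP12 and USP46 were all lower, and so was the gene of the partner they share. WDR48, also called UAF1, is a WD-repeat protein that binds these enzymes and raises their activity. USP1 removes ubiquitin from the DNA repair proteins FANCD2 and PCNA. It had 654 and 304 counts, 1.83-fold lower (1.60 to 2.11). USP12 and USP46 are close paralogs that act on receptors and signalling proteins. USP12 had 186 and 84 counts, 1.89-fold lower (1.45 to 2.47), and USP46 had 78 and 32 counts, 2.08-fold lower (1.36 to 3.24). WDR48 had 264 counts against 117, 1.92-fold lower (1.54 to 2.41). The 4 folds lie within each other's counting intervals. WDR20, a second activator of USP12 and USP46, had 153 counts against 98, 1.33-fold lower (1.03 to 1.73), inside the limits. DMWD, a relative of WDR20, had 251 counts against 317, 1.48-fold higher (1.25 to 1.76). After centring on 3' GC, described below, DMWD lay at -0.29 on the log2 scale, so its side turned. WDR20 then lay at -0.045, and USP1 at -0.52, short of the limit. These genes were set side by side after their values were seen.

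The promoters of these 3 USP genes are shown because the genes were lower together. The promoter table used, made from RefSeq, matched 39 of the 50 USP genes, and each sequence runs from 250 bases before to 50 after the first start listed, 5' to 3', on GRCh38.p14. Unmatched in that table were USP9X, USP18, USP24, USP26, USP31, USP37, USP42, USP43, USP44, USP48 and USP51. Capitals mark matches, on either strand, to the GC box (GGGCGG), the CCAAT box (CCAAT) and an ETS motif (CCGGAAG), and no match overlaps another in these sequences.
USP1, chr1:62436145-62436444, strand +: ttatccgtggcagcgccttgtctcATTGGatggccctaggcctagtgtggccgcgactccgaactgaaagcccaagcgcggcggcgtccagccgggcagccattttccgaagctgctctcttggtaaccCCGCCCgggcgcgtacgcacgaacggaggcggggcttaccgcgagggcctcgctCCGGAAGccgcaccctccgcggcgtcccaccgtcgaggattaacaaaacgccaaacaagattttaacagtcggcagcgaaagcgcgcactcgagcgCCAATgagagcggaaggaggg
USP12, chr13:27171762-27172061, strand -: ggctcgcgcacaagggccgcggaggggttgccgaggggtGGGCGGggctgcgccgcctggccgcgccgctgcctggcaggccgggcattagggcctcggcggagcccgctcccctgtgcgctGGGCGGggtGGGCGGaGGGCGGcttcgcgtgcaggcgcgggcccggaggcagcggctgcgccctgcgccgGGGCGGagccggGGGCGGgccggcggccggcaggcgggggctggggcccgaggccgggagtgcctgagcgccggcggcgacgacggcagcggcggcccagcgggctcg
USP46, chr4:52659252-52659551, strand -: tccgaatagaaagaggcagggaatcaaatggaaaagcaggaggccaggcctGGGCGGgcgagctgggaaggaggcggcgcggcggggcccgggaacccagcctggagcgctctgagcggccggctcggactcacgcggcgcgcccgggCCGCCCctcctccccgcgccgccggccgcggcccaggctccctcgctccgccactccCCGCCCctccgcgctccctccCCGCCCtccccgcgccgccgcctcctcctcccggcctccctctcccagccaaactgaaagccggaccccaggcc
The USP1 window held 1 GC box, 2 CCAAT boxes and 1 ETS motif. USP12 held 6 GC boxes and USP46 held 4, and neither held one of the other motifs. A GC box lay in 31 of 39 USP promoters (79.5%) and in 44.6% of the first listed promoters of all 27305 genes. Those 27305 genes were not limited to genes expressed or compared here, so the 2 sets are unlike. It was in 8 of 8 promoters of USP genes called lower, 2 of 3 called higher and 19 of 24 between the limits, so it was common in each class. CCAAT lay in 10 of 39 (25.6%) against 35.7% of all, and the ETS motif in 10 of 39 (25.6%) against 10.7%. A match describes the letters only.

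Genes of the ubiquitin pool and the proteasome lay between the limits. USP14, which trims ubiquitin chains on the proteasome, had 926 and 670 counts, 1.18-fold lower (1.07 to 1.30). USP5, which takes apart free ubiquitin chains, had 695 counts against 872, 1.47-fold higher (1.33 to 1.63), close under the limit. Its paralog USP13 had 404 and 251 counts, 1.37-fold lower (1.17 to 1.61). The pair therefore stood on opposite sides of 1 before centring, and neither interval held 1. After centring on 3' GC, described below, USP5 lay at -0.17 and USP13 at -0.34 on the log2 scale, both on the lower side.

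Chromatin and DNA repair USPs went both ways, with 2 called higher, 2 lower and 5 between among 9 compared of 11. The shares over all compared symbols were 21.1% higher and 22.3% lower. The role groups are small, and none was tested against those shares. Beside USP1, USP49, reported to act on ubiquitinated histone, had 101 counts against 41, 2.10-fold lower (1.45 to 3.10). USP11, a paralog of USP4 and USP15 linked to BRCA2 and homologous recombination, had 748 counts against 1089, 1.71-fold higher (1.55 to 1.88). USP27X had 117 and 162 counts, 1.62-fold higher (1.27 to 2.08). Its paralog USP22, the histone deubiquitinase of the SAGA coactivator complex and the most counted of the group, had 3083 counts against 2243, 1.17-fold lower (1.11 to 1.24). USP48, which acts on histones marked by BRCA1, was 1.48-fold higher (1.39 to 1.57), and USP47, a paralog of USP7 that acts on DNA polymerase beta, was 1.39-fold higher (1.28 to 1.51). USP3 and USP16, histone deubiquitinases, were 1.20-fold higher and 1.33-fold lower. Under the count limit were USP51 (28 and 17 counts) and USP44 (5 and 2 counts).

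USP22, USP27X and USP51 share the adaptors ATXN7L3 and ENY2. ATXN7L3 had 709 counts against 1134, 1.88-fold higher (1.71 to 2.06), whereas ENY2 had 1413 counts against 924, 1.30-fold lower (1.20 to 1.42). ATXN7, which anchors the deubiquitinase module in SAGA, had 288 counts against 105, 2.34-fold lower (1.86 to 2.95). After centring on 3' GC, described below, ATXN7L3 lay at 0.41 on the log2 scale, short of the limit. The genes of the module thus did not share a direction.

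Among USPs tied to p53, MYC and the cell cycle, 5 of 7 were compared, with 1 higher, 1 lower and 3 between. The all-symbol shares were 21.1% higher and 22.3% lower. USP36, a nucleolar enzyme that stabilises MYC, had 551 counts against 893, 1.90-fold higher (1.71 to 2.12), the highest fold of the compared members. USP37, which stabilises cyclin A, had 356 counts against 158, 1.92-fold lower (1.59 to 2.33). USP7, which stabilises MDM2 and p53, had 2100 and 2004 counts, 1.12-fold higher (1.05 to 1.19). USP10 and USP28 were 1.27-fold and 1.32-fold higher. USP2 had 4 and 14 counts, a ratio of 4.11 (1.29 to 17.1), and was under the count limit. GMPS, a partner of USP7, was 1.15-fold lower (1.02 to 1.30), and the stress granule proteins G3BP1 and G3BP2, partners of USP10, were 1.27-fold and 1.32-fold lower. After centring on 3' GC, described below, GMPS lay at 0.087 and USP7 at -0.17 on the log2 scale, so both changed side. G3BP1 and G3BP2 then lay at -0.20 and -0.087.

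In the group that acts on endosomes, receptors and signalling, 10 of 12 genes were compared, with 3 lower, 0 higher and 7 between. Over all compared symbols, 22.3% were lower and 21.1% higher, and the difference from this small group was not tested. USP8, which binds the endosomal sorting proteins STAM and STAM2 and deubiquitinates receptors such as EGFR, had 2327 counts against 1281, 1.55-fold lower (1.45 to 1.66). USP12 and USP46 were the other genes called lower. After centring on 3' GC, described below, USP8 lay at -0.40 on the log2 scale, short of the limit. STAM2 had 177 and 61 counts, 2.47-fold lower (1.84 to 3.37), STAM had 268 and 244 with an interval that held 1, and HGS, which forms a complex with both, was 2.04-fold higher (1.79 to 2.33) but at a log2 ratio of 0.17 after that centring. USP9X, a large enzyme with many targets, had 2901 counts against 2654, 1.07-fold higher (1.02 to 1.13). USP34, which acts on axin in Wnt signalling, had 1625 and 1366 counts and lay at 0.986 (0.917 to 1.06). USP4 and USP15, linked to TGF-beta receptors, had folds of 1.18 and 0.924, and USP33 and USP32 of 1.27 and 1.04.

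USP43 was under the count limit and was not compared. Its 37 control counts stood against 3, 10.5-fold lower (3.33 to 53.3). USP6, a hominoid gene derived from USP32, had 1 and 6 counts, and its interval of 0.854 to 323.7 held 1.

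The enzymes of the mitochondrion and the endoplasmic reticulum lay between the limits. USP19, which has a form anchored in the endoplasmic reticulum, had 200 and 220 counts, 1.29-fold higher (1.06 to 1.57). USP30, which opposes parkin on the outer mitochondrial membrane, had 137 and 102 counts, and USP35 had 39 and 23. The intervals of USP30 and USP35 held 1.

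Of 5 USPs tied to innate immunity, 2 were lower and 1 higher, beside 22.3% and 21.1% of all compared symbols. USP18, an interferon-induced enzyme that removes the ubiquitin-like protein ISG15, had 68 counts against 109, 1.88-fold higher (1.38 to 2.58). ISG15 itself had 17 and 23 counts and was under the count limit. USP21 had 54 and 16 counts, 2.88-fold lower (1.62 to 5.39), and USP38 had 63 and 20 counts, 2.69-fold lower (1.60 to 4.69). These had the lowest 2 folds of the compared members, from few counts. USP25, the most counted of the group, had 292 and 163 counts, 1.53-fold lower (1.26 to 1.86), and USP31 had 134 and 99, with an interval that held 1.

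The remaining 9 genes gave 7 compared, with 1 higher, 2 lower and 4 between, beside all-symbol shares of 21.1% higher and 22.3% lower. USP42, the paralog of USP36, had 577 counts against 891, 1.81-fold higher (1.63 to 2.01). USP45, which acts on the repair nuclease subunit ERCC1, had 80 and 29 counts, 2.35-fold lower (1.52 to 3.73), and USP24 had 135 and 63 counts, 1.83-fold lower (1.34 to 2.50). USP53, found at tight junctions and the most counted of this group, had 1260 and 1139 counts at a fold of 1.06 (0.978 to 1.15). USP39, a splicing factor that lacks protease activity, and USP40 had folds of 1.06 and 1.01, with intervals that held 1. USP50 had 10 and 1 counts.

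Of 20 paralog pairs listed, 14 had both genes compared. Both genes were lower in 1 pair (USP12 and USP46), both higher in 1 (USP36 and USP42) and both between in 6. One gene was lower and the other between in 3 pairs, 1 was higher and the other between in 3, and no pair had opposite calls. Single genes were called lower in 22.3% and higher in 21.1% of all compared symbols, but no background share for pairs was computed. Pairs among USP4, USP11 and USP15 share genes, so nothing is concluded from these counts. The log2 ratios of USP12 and USP46 were -0.85 and -0.88, and those of USP36 and USP42 were 0.91 and 0.84. Before centring on 3' GC, described below, USP5 and USP13 stood furthest apart of the compared pairs, at 0.55 and -0.44. USP28 and USP25 followed at 0.38 and -0.58. After centring, USP5 and USP13 lay at -0.17 and -0.34, and USP28 and USP25 at 0.72 and -0.28. USP12 and USP46 then lay at -0.67 and -0.77, and USP36 and USP42 at 0.42 and 1.13. USP41, the near copy of USP18, had no symbol among those counted, so that pair was not compared.

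**Figure D4:**
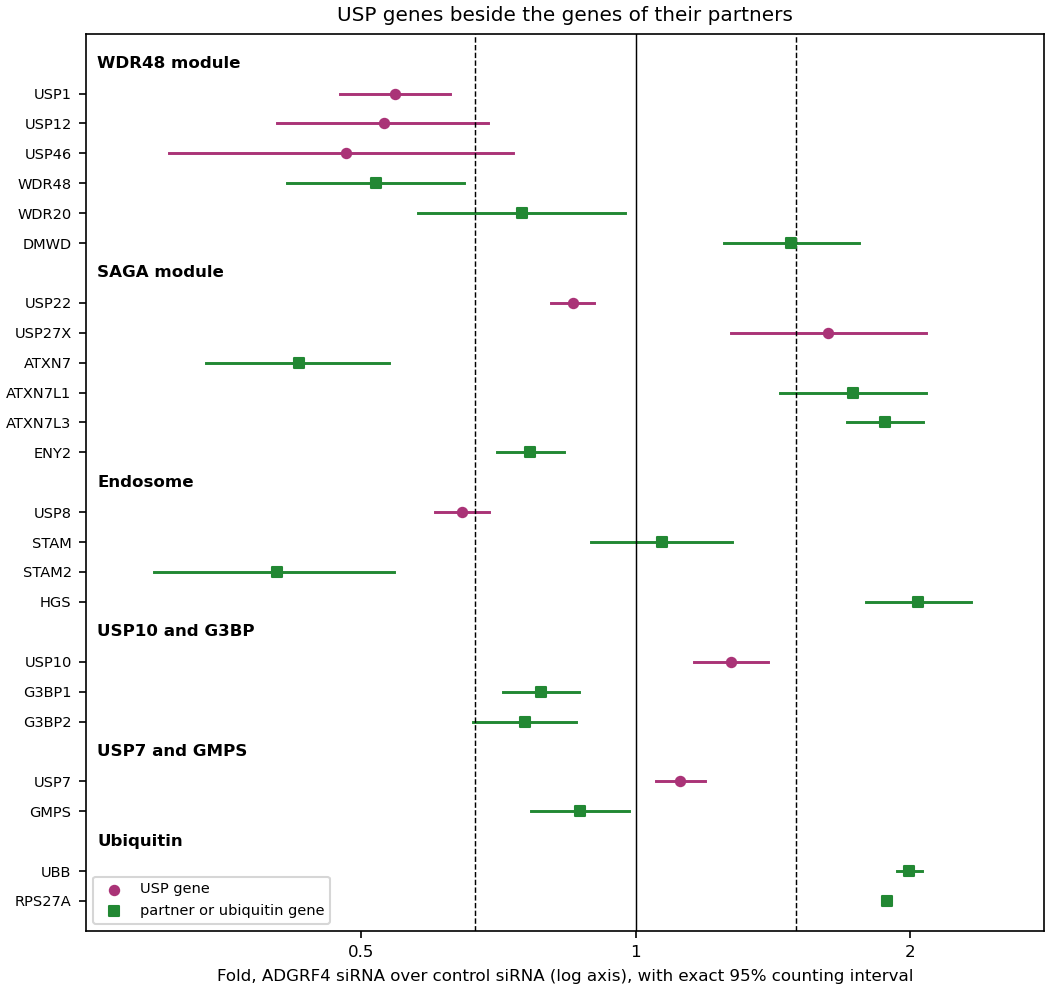
Fold of USP genes (circles) beside genes of their partners and of ubiquitin (squares), ADGRF4 siRNA over control siRNA, on a log axis with exact 95% counting intervals and dashed lines at 1.5-fold. USP1, USP12, USP46 and WDR48 lie between 0.481 and 0.545, while the SAGA and endosome genes lie on both sides of 1 and UBB and RPS27A lie above 1.5.

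Members with fewer counts were lower more often. Of the 20 compared USP genes with a mean under 300 counts, 8 were lower and 2 higher, and of the 22 with at least 300 counts, 2 were lower (USP1 and USP8) and 3 higher. Over all compared symbols the shares lower were 27.1% and 16.5%. The median log2 ratios were -0.47 and 0.13 in the USP genes and -0.12 and 0.098 in all symbols. The split at 300 counts was chosen after the values were seen, and the part of counting depth in these calls was not tested.

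In these libraries the ratio also moved with how GC-rich the 3' end of a transcript was. Over 11530 compared symbols, Spearman's rho between 3' GC (the percentage of G and C in the final 300 bases) and the log2 ratio was 0.46, and over the 42 USP genes it was 0.36. Both are correlations across genes within 1 pair of libraries, and genes are not independent replicates. USP genes ranged from 25.3% to 58.3% GC with a median of 38.2%, against 40.3% for all compared symbols. USP36 (54.0%) and USP11 (55.7%) have GC-rich ends, whereas USP42 and USP27X (32.0% each) and USP18 (40.3%) do not.

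After log2 ratios were centred on the median of symbols with like 3' GC, 3 of the 5 higher and 8 of the 10 lower genes kept their call. USP36 lay at 0.42 and USP11 at 0.19, USP1 at -0.52 and USP8 at -0.40, all short of the limit of 0.58. USP42 (1.13), USP27X (0.94) and USP18 (0.92) stayed higher, and USP21 (-1.29), USP38 (-0.80), USP46 (-0.77) and USP12 (-0.67) stayed lower, with USP45, USP24, USP37 and USP49 between -0.66 and -0.61. USP10, USP28, USP33 and USP47 newly reached the limit on the higher side, at 0.62 to 0.72, and USP35 on the lower side, at -0.73. Some genes between the limits changed sign. Among them, USP5 (-0.17), USP7 (-0.17), USP19 (-0.14) and USP20 (-0.024) went from higher to lower, and USP14 (0.051) from lower to higher. WDR48 lay at -0.79.

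**Figure D5:**
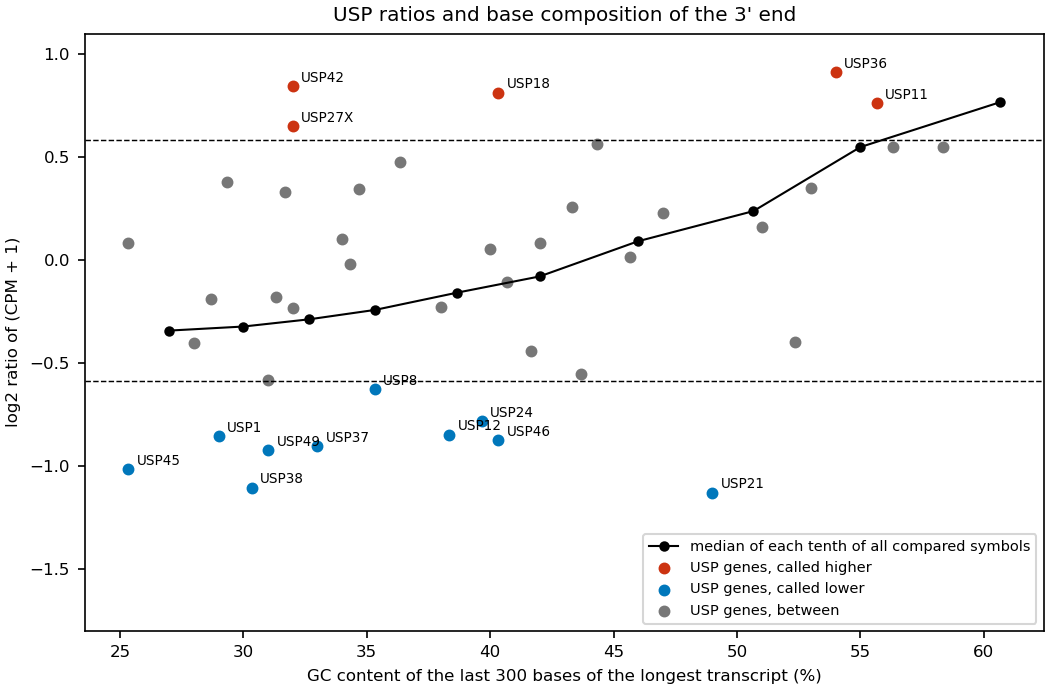
3' GC of the longest annotated transcript (x axis, percent of its final 300 bases) against the log2 ratio of (CPM + 1), ADGRF4 siRNA over control siRNA (y axis), for the 42 compared USP genes. The black line joins the medians of 10 equal groups of all compared symbols, from -0.34 at 27.0% GC to 0.77 at 60.7%, and dashed lines mark 1.5-fold. USP42 and USP27X lie far above the line and USP21 far below it, while USP11 lies near it.

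Some USP counts can include reads of other genes. All of the last 300 bases of USP37 and USP34 are also transcribed from the other strand, by VIL1 (60 and 51 counts) and AHSA2 (877 and 455 counts), and 90.8% of the 50-base stretches at the end of USP50 lie in USP8 on the other strand. For USP49 that share is 78.5%, in an unnamed transcript, and exons of USP49 are also overlapped by TOMM6 (2558 and 2120 counts). An unnamed transcript covers 38.6% of the end of USP22 and THOC1 covers 24.3% of that of USP14. If strand was not used in counting, reads of such pairs cannot be told apart. On the same strand, the whole end of USP31 lies in an unnamed transcript, and USP32 shares 12.0% of its end with the pseudogene USP32P1, which had 105 and 95 counts.

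The other deubiquitinases were set beside the USP genes. Of 37 listed in the UCH, OTU, Josephin, JAMM, MINDY and ZUFSP families, 32 were compared, with 5 higher (15.6%), 4 lower (12.5%) and 23 between and a median log2 ratio of 0.025. The all-symbol shares are 21.1% and 22.3%, and the difference from the USP genes was not tested. In the OTU family, OTUB1, which also blocks ubiquitin-conjugating enzymes, had 1096 counts against 2406, 2.57-fold higher (2.40 to 2.77), OTUD5 was 2.08-fold higher (1.93 to 2.24) and VCPIP1 was 2.01-fold lower (1.27 to 3.25), with 9 of 12 between. Centring on 3' GC took OTUB1 to 0.52, OTUD5 to 0.48 and VCPIP1 to -0.52. Of the 9 genes listed under the JAMM family, 2 were higher and 3 lower. Being listed there does not mean that each acts as a deubiquitinase. EIF3H, a translation initiation subunit, was 2.08-fold lower (1.92 to 2.27), STAMBP, an endosomal enzyme that also binds STAM, 1.93-fold lower (1.58 to 2.35), and EIF3F 1.64-fold higher (1.53 to 1.76). JOSD2, a Josephin enzyme, was 1.74-fold higher (1.33 to 2.27), with a centred log2 ratio of -0.11. All 4 UCH genes and all 4 compared MINDY and ZUFSP genes lay between the limits, with UCHL1 at 8996 and 7749 counts.

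Of the listed genes with a USP fold outside the naming rule, those compared were CYLD, at 194 and 186 counts between the limits, and PAN2, a subunit of a poly(A) nuclease, at 126 and 17 counts, 6.32-fold lower (3.79 to 11.2). USPL1 had 23 and 25 counts. The 27 USP17-like symbols had 0 counts in both libraries. Of 15 USP partner genes, 14 were compared, with 4 higher, 3 lower and 7 between and a median of -0.27, and -0.049 after centring on 3' GC. The all-symbol shares were 21.1% higher and 22.3% lower, and the difference was not tested. Of the genes that encode ubiquitin itself, UBB had 6317 and 10747 counts, with a fold interval of 1.93 to 2.06. RPS27A, which encodes ubiquitin fused to a ribosomal protein, had 57474 and 92273 counts and a fold of 1.88 (1.86 to 1.90). Ubiquitin genes have near-identical coding repeats and pseudogene copies, so how reads were divided among them is uncertain.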

How the data were processed

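RNA of 1 control siRNA and 1 ADGRF4 siRNA culture was extracted with Trizol and made into 3' end libraries with the Lexogen QuantSeq kit, per the labels' protocols. Raw counts for each symbol were deposited, as whole numbers. Bowtie2, edgeR and hg19 are named per the submitters' processing notes. Which step each served, its version, the annotation and the strand and multi-mapping settings are not stated in those sources. The 286 repeated symbols were summed, and no row lacked a symbol.

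Library sizes were scaled by TMM (edgeR 4.0.16, R 4.3.3). Symbols averaging 30 counts or more were compared by the ratio of (CPM + 1), with 1.5-fold as the call. Intervals of folds are Clopper-Pearson at 95%. They cover counting error only, since each group holds 1 library. The files carry no molecular identifiers, so PCR copies count as separate reads and the intervals can be too narrow. For 3' GC, the final 300 bases of each longest GENCODE 29 transcript (GRCh38) were read, found for 98.0% of compared symbols, and centring used 20 bins. That transcript's end need not be the one used in A549. Older symbols were matched through RefSeq synonyms. The ratio calculation was tested on simulated counts. Alternatives were other scalings (total counts, DESeq2 1.42.0 size factors, upper quartile), pseudocounts, count limits, a 2-fold call, GC centring and unsummed rows.

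The USP genes, roles, partners, paralog pairs and other lists were chosen with earlier results of these data known. All members were described, with counts for each called gene and the most counted gene of each role, and up to 3 genes with the largest ratios of each other list. Some further genes, such as the SAGA and endosomal partners, were added after their values were seen. Coordinates of the files' build are not printed. Python 3.11.15 was used with scipy 1.17.1, pandas 2.3.3 and numpy 2.4.6. Some listed genes are not reported here.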

Additional observations from a re-analysis of the deposited data

How the results depend on the processing

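With 1 library per group, no library can be left out. No paired analysis was possible because the result comes from no test and each group holds 1 library. No ratio of a called USP gene reversed under the scalings, pseudocounts, GC centring or unsummed rows. Some genes between the limits did change sign, such as USP5, at -0.17 after GC centring. Of the 294 single-gene values under those settings, 260 moved by less than the counting error and 34 by more. All 34 came from GC centring or total-count scaling, most of them from GC centring. Unsummed rows could move no USP gene, since each stood on 1 row. The count of USP genes called higher, 5 as reported, was 3 with a pseudocount of 5 CPM (USP18 and USP27X lost) and 0 at 2-fold. Elsewhere it ran from 4 to 7. The count called lower, 10 as reported, was 4 with a mean of at least 100 counts, where fewer genes were compared (32), and 3 at 2-fold, and elsewhere ran from 7 to 13. Those lost at a pseudocount of 5 CPM on the lower side were USP21, USP24 and USP46. Total-count scaling moved the median of all compared symbols from -0.016 to -0.16 and gave 4 higher and 13 lower USP genes, against 16.1% and 27.7% of all symbols. The family's median log2 ratio, -0.0014 as reported, was -0.15 with total-count scaling, 0.083 with a mean of at least 100 counts, and -0.064 both with a mean of at least 10 counts and with no count limit. Depth limits the genes with few counts, such as USP21, USP38, USP43 and USP45, whose intervals are wide.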
